A study of Mus musculus with 2 samples.

Results

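The genes described here encode lysosomal enzymes, lysosomal membrane proteins and the V-ATPase, the proton pump that acidifies lysosomes. They comprise 31 named genes together with every annotated gene whose symbol begins with Atp6v0 or Atp6v1, which added 18 coding genes and 1 pseudogene. Of these 50 genes, 48 had reads, against 14198 annotated genes with reads in all. The cells were C2C12, a mouse myoblast line that the labels trace to crushed thigh muscle of C3H mice, sequenced as total RNA with long reads in 1 group of 2 biological replicates. The labels give neither the differentiation state of the cultures nor a treatment, so no condition could be compared. Levels are therefore a description, and each test compares replicate 1 with replicate 2 and covers counting error only.

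Lysosomes degrade proteins, glycans and lipids with hydrolases that work at acidic pH. Most of these hydrolases are made in the endoplasmic reticulum and reach the lysosome by way of mannose 6-phosphate receptors. A coat of heavily glycosylated membrane proteins lines the organelle, and the V-ATPase joins a cytosolic ring (V1), which hydrolyses ATP, to a membrane ring (V0), which carries protons. Some of these genes hold the core of a CLEAR-type E-box in their promoters, and the factors TFEB and TFE3 bind such E-boxes.

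Replicate 1 held 791850 reads and replicate 2 held 735077 reads, of which 97.7% and 98.3% lay on annotated genes. Levels are given in CPM over the annotated-gene reads, as mean ± SD of both libraries (n = 2), and 3 counts made 3.88 CPM in replicate 1 and 4.15 CPM in replicate 2. A long read stands for 1 cDNA molecule, so counts were not divided by transcript length, and how far long transcripts are under-represented was not tested. All 6 myoblast markers had reads in each library. By the exact binomial test described below, 2 of the 6 were called different, beside 3.98% of all 8940 genes tested. Myf5 had 215 reads in replicate 1 and 60 in replicate 2 (log2 ratio 1.73, adjusted p = 1.05e-16 by that exact test). Des had 881 and 1187 reads (log2 ratio -0.53, adjusted p = 5.84e-14 by that exact test). Myog had 438 and 454 reads, Cdh15 158 and 168, Myod1 119 and 127, and Vcam1 44 and 70. Of 8 macrophage markers 2 were read in both libraries and 4 had no read, with a summed level of 24.6 CPM in replicate 1 and 37.4 CPM in replicate 2, most of it from Cd14 (16 and 21 reads). All 6 osteoclast markers, including Acp5 and Calcr, had 0 reads in both libraries.

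The results turn on 3 stretches of sequence. The first is the pair of RefSeq promoters of Ctsa, the gene of cathepsin A, on chromosome 2 (GRCm38.p6, plus strand), 250 bases before to 50 bases after each start. Most reads of Ctsa lay on models that begin near the downstream one. Capitals mark CACGTG, the core of the CLEAR-type E-box, which reads the same on both strands.
Ctsa upstream promoter, chr2:164832622-164832921: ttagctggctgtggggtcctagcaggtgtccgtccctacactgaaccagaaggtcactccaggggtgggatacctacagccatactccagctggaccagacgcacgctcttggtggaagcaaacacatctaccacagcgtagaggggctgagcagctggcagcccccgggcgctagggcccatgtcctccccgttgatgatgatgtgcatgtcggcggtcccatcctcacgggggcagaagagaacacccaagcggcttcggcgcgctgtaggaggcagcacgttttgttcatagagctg
Ctsa downstream promoter, chr2:164833523-164833822: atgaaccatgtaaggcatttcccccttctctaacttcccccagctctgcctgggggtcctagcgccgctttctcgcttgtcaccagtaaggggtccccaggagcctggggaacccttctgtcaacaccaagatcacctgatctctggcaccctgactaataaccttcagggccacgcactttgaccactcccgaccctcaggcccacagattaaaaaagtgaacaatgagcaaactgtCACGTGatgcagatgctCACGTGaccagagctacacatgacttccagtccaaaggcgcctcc

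The second is the coding part of the 3 alternative last exons of Lamp2 on chromosome X (mm10, minus strand, from the GENCODE M21 transcripts). Lamp2 encodes a lysosomal membrane glycoprotein, and its last exon decides which membrane span and cytosolic tail the protein carries, named LAMP-2A, LAMP-2B and LAMP-2C. Capitals mark the stop codon.
LAMP-2A end, chrX:38405432-38405571: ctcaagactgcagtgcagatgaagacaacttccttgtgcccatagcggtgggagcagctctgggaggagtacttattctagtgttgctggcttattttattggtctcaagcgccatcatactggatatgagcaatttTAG
LAMP-2B end, chrX:38421712-38421851: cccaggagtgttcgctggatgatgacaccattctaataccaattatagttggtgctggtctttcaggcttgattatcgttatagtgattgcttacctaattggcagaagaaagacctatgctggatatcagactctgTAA
LAMP-2C end, chrX:38402139-38402281: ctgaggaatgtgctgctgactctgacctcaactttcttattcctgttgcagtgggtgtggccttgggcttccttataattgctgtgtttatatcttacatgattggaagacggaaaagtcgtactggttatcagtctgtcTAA

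The third is a splice junction of Psap on chromosome 10 (mm10, plus strand, GENCODE M21 transcripts). Psap encodes prosaposin, the precursor that is cut into the saposins, small activators of sphingolipid breakdown. The transcripts differ by a few bases at this junction, shown with 30 bases on each side and the added bases in capitals.
Psap-205, with a 9-base exon: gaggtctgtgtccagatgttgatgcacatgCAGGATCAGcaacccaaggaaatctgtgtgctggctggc
Psap-201, with a 6-base extension: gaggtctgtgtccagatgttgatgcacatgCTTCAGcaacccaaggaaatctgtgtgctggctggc
Psap-202, joined directly: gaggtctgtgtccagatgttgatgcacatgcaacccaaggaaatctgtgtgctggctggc

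Lysosomal and V-ATPase genes together held 13226 CPM in replicate 1 and 13628 CPM in replicate 2, which is 1.32% and 1.36% of the annotated-gene reads. Their median level was 149 CPM over the 48 genes with reads, beside 13.5 CPM over all genes with reads. Proteases and membrane glycoproteins made up most of this sum, with 3793 ± 225 CPM and 3696 ± 148 CPM. Lipid-handling proteins and their activators held 1979 ± 115 CPM, the V1 subunits 1917 ± 28.1 CPM, the V0 subunits 924 ± 0.071 CPM, the glycosidases 599 ± 27.8 CPM and the V-ATPase accessory proteins 340 ± 73.0 CPM. With n = 2 an SD can be small by coincidence, so that of the V0 subunits is no measure of precision.

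Among the proteases, the cysteine cathepsins B and L led. Ctsb, an endopeptidase that also trims peptides from their carboxyl end, had 918 reads in replicate 1 and 935 in replicate 2 (1240 ± 75.6 CPM). Ctsl, an endopeptidase, had 693 and 664 reads (907 ± 16.1 CPM). Ctsd, the main aspartic protease of lysosomes, had 478 and 482 reads (643 ± 34.6 CPM). These 3 genes kept this order in both libraries, and their levels did not overlap. Ctsa, a serine carboxypeptidase that also holds neuraminidase and beta-galactosidase in one complex, had 250 and 265 reads. Ctsz, a carboxypeptidase, had 254 and 218 reads, and the libraries put Ctsa and Ctsz in opposite orders.

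Lgmn, the asparagine endopeptidase legumain, had 134 reads in replicate 1 and 175 in replicate 2, and Tpp1, a tripeptidyl peptidase, averaged 111 ± 29 CPM. Ctsh, an aminopeptidase, lay at 24.3 ± 8.73 CPM. Ctsc, the dipeptidyl peptidase that activates proteases of immune cells, and Ctsk, the collagen-degrading cathepsin of osteoclasts, had 0 reads in both libraries, which allows up to 3.88 CPM in replicate 1 and 4.15 CPM in replicate 2. The absence of Ctsk reads stood beside 0 reads on every osteoclast marker.

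The glycosidases, which remove terminal sugars, were lower. Hexa, the alpha subunit of beta-hexosaminidase, had 178 reads in replicate 1 and 190 in replicate 2 (247 ± 23.2 CPM). Gusb, the beta-glucuronidase, had 62 and 58 reads. Glb1, the beta-galactosidase, had 52 and 49 reads, and Gaa, the acid alpha-glucosidase that breaks down glycogen and is the enzyme deficient in Pompe disease, had 44 and 51 reads. Naglu, which acts on heparan sulfate, had 47 and 39 reads. Gusb, Glb1, Gaa and Naglu lay between 57.4 and 80.2 CPM on average with Gusb the highest in both libraries and the other genes in a different order in each. Man2b1, an alpha-mannosidase, averaged 42.1 ± 1.08 CPM, the sialidase Neu1 30.8 ± 1.48 CPM and the alpha-galactosidase Gla 10.6 ± 3.27 CPM.

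Npc2, the soluble protein that binds cholesterol in the lysosomal lumen, stood far above the others of the lipid group, with 826 reads in replicate 1 and 802 in replicate 2 (1089 ± 29.6 CPM). Npc1, the membrane protein that takes over cholesterol from it, had 4 and 5 reads, none of them on a complete model. Grn, whose product progranulin is cut into granulins, had 167 and 197 reads. Asah1, the acid ceramidase, had 164 and 159 reads, Ppt1, which removes palmitate from proteins, had 130 and 144 reads, and Psap had 135 and 139 reads. Lipa, the acid lipase, averaged 56.9 ± 3.68 CPM. The counts of Npc1 were too low for the test between libraries. Whether transcript length bears on the difference between Npc1 and Npc2 was not tested.

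Cd63, a tetraspanin of late endosomes, lysosomes and exosomes, was the highest of all 50 genes and ranked 31 among all genes, with 1899 reads in replicate 1 and 1546 in replicate 2 (2297 ± 223 CPM). Lamp1 and Lamp2, the most abundant glycoproteins of the lysosomal membrane, had 779 and 844 reads and 211 and 168 reads. Scarb2, the receptor LIMP-2 that carries an enzyme to lysosomes, had 50 and 37 reads.

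**Figure D1:**
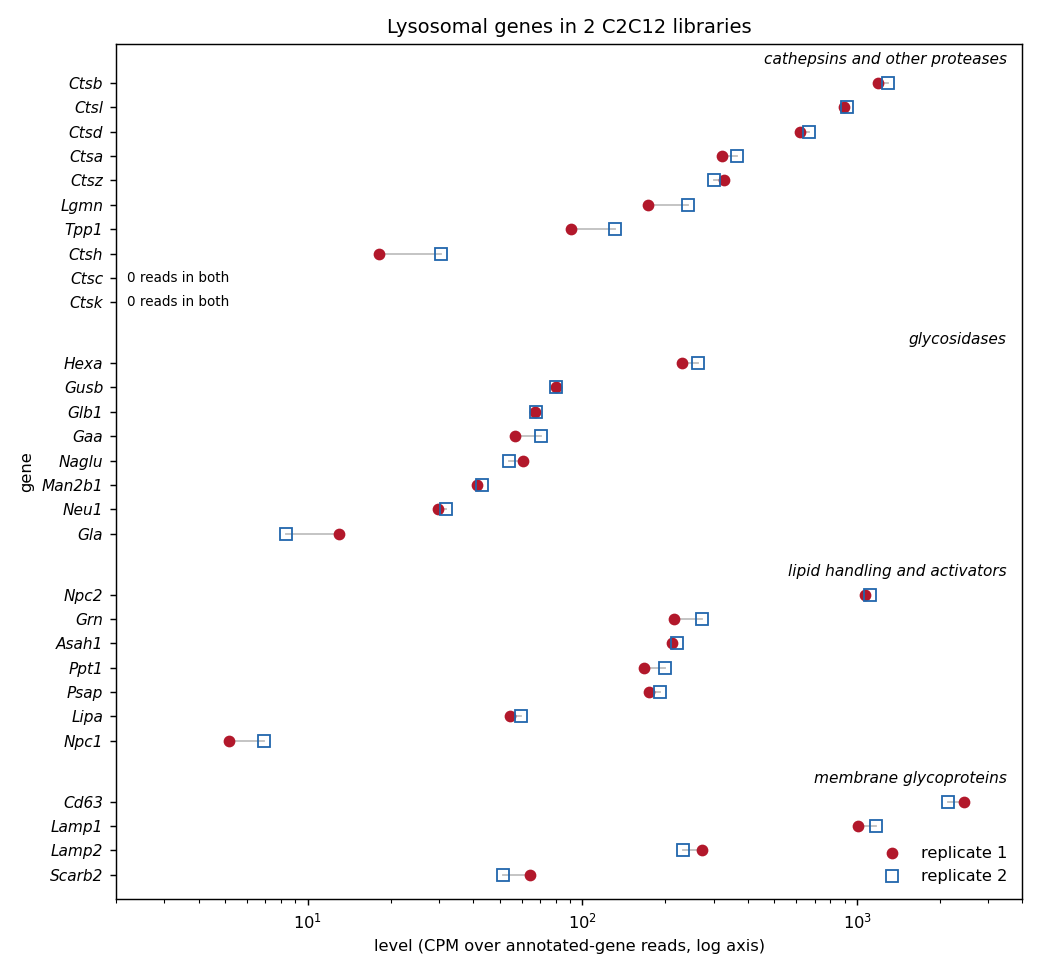
Level of each lysosomal gene in CPM over annotated-gene reads (log axis), by role, with replicate 1 as filled circles and replicate 2 as open squares. Cd63, Ctsb, Npc2 and Lamp1 are the 4 highest in both libraries, while Npc1 is the lowest of those with reads and Ctsc and Ctsk have no reads.

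Each V1 subunit had at least 1 gene with reads in both libraries. Atp6v1g1, a subunit G of the peripheral stalk, led with 734 reads in replicate 1 and 613 in replicate 2 (899 ± 71.3 CPM). Atp6v1c1 (subunit C) had 131 and 169 reads, Atp6v1d (subunit D of the central stalk) 161 and 125 reads, Atp6v1e1 (subunit E) 136 and 109 reads, and Atp6v1f (subunit F) 106 and 96 reads. The catalytic pair was lower, with 67 and 83 reads on Atp6v1a (subunit A) and 87 and 87 reads on Atp6v1b2 (subunit B), and Atp6v1h (subunit H) averaged 109 ± 14.7 CPM. Subunits A and B are present in equal number in the ring. The main transcript of Atp6v1a is 4234 bases long and that of Atp6v1g1 1135 bases, and whether length bears on their difference in reads was not tested.

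In V0, the proteolipid genes led. Atp6v0c, the main proteolipid of the rotating ring, had 212 reads in replicate 1 and 231 in replicate 2, Atp6v0b, its companion, had 226 and 177 reads, and Atp6v0e, a small membrane subunit, had 193 and 164 reads. Atp6v0d1, which joins the ring to the central stalk, had 41 and 45 reads, and Atp6v0a2 had 19 and 29 reads. The accessory genes Atp6ap2, which encodes the prorenin receptor, and Atp6ap1, which encodes Ac45, had 159 and 188 reads and 64 and 95 reads.

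Where a V-ATPase subunit has several genes, the files held reads almost entirely on the widely expressed one, except for subunit a. Of 174 reads on subunit B genes, all lay on Atp6v1b2 and 0 on Atp6v1b1, the form of kidney and inner ear, which allows a share of up to 1.72%. Of 245 reads on subunit E genes, all lay on Atp6v1e1 and 0 on Atp6v1e2, a form of testis, which allows up to 1.22%. Atp6v1c2 had 2 of 302 subunit C reads, Atp6v1g2, a form of neurons, had 1 of 1348 subunit G reads, and Atp6v1g3 had 0. Atp6v0d2, a form of osteoclasts and kidney, had 1 of 87 subunit d reads, and Atp6v0e2 had 8 and 7 reads, 4.03% of 372 subunit e reads (Wilson 95% interval 2.46% to 6.55%).

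Subunit a, which sets the membrane that the pump is sent to, was shared by 3 genes. Atp6v0a1 had 16 reads in replicate 1 and 14 in replicate 2, Atp6v0a2 had 19 and 29, and Tcirg1, the gene of the a3 form used by lysosomes and by the resorbing membrane of osteoclasts, had 32 and 26. Their pooled shares of 136 reads were 22.1% (15.9% to 29.7%), 35.3% (27.8% to 43.6%) and 42.6% (34.6% to 51.0%), and the order of Atp6v0a2 and Tcirg1 was not the same in both libraries. Atp6v0a4, a kidney form, had 0 reads, which allows up to 2.21%. Tcirg1 does not carry an Atp6v symbol and was taken from a list of other lysosomal membrane proteins.

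**Figure D2:**
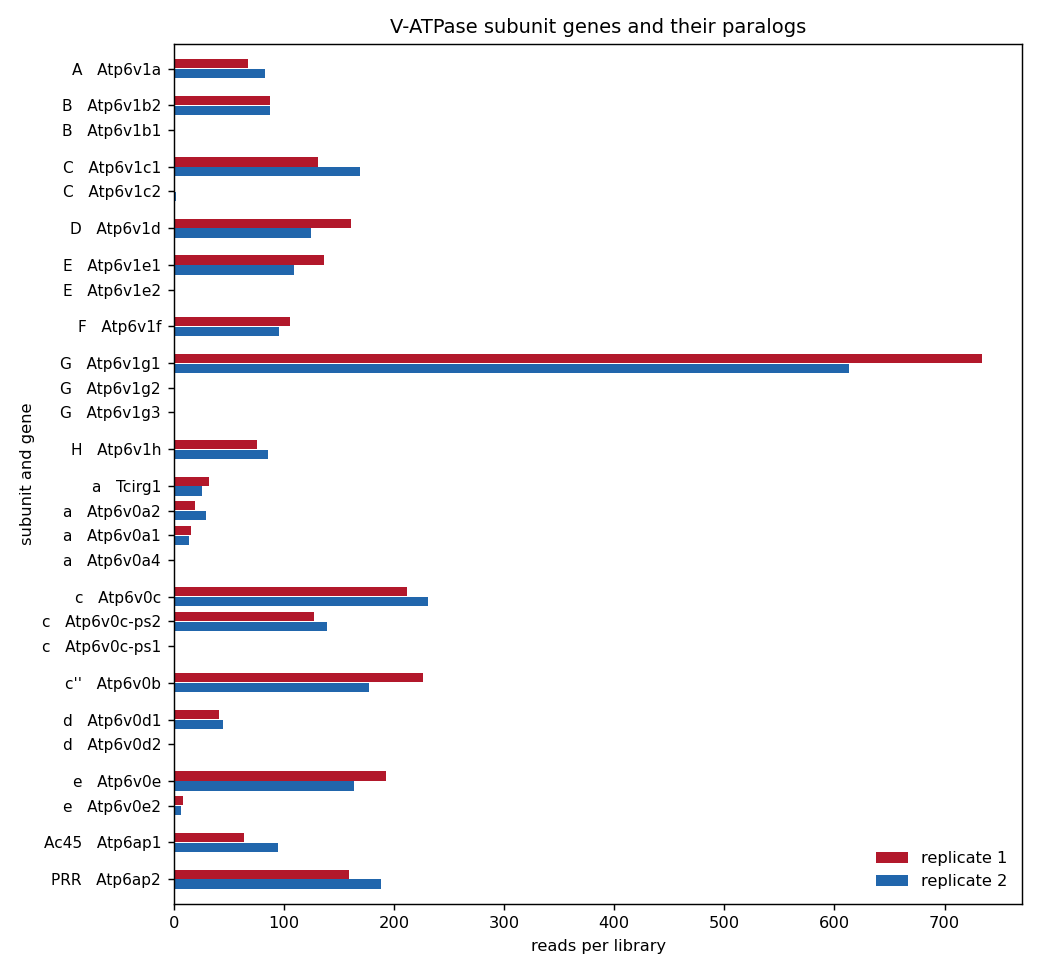
Reads per library on each V-ATPase gene, grouped by subunit, with replicate 1 as the upper bar and replicate 2 as the lower bar. A single gene holds nearly all reads of subunits B, C, E, G, d and e, while Tcirg1, Atp6v0a2 and Atp6v0a1 share those of subunit a.

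The proteolipid gene has a near-identical copy. Atp6v0c-ps2, annotated as a processed pseudogene on chromosome 6 (37806086 to 37806550), had 127 reads in replicate 1 and 139 in replicate 2, against 212 and 231 on Atp6v0c, which lies on chromosome 17 (24163866 to 24169702). Its share of the 709 reads on both was 37.5% (34.0% to 41.1%), with 37.5% in replicate 1 and 37.6% in replicate 2. The 2 sequences were 99.8% identical over 465 aligned bases, so the division of reads between them is uncertain. In a search of 46 genes against all annotated transcripts at 90% identity over at least 200 bases, Cd63 also had such a copy with reads, Cd63-ps (98.0% identical over 858 bases), with 21 and 25 reads. Gm13453 (99.4% identical to Atp6v1g1 over 357 bases) had 4 and 0 reads.

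Between the libraries, 1 of 44 tested genes of the set was called different by the exact binomial test with Benjamini-Hochberg adjustment over all genes, beside 3.98% of all 8940 genes tested (2.6% higher in replicate 1 and 1.39% higher in replicate 2). This gene was Cd63, which was higher in replicate 1 by 0.20 on the log2 scale (adjusted p = 0.00317). At an unadjusted p under 0.05 there were 9 of 44, beside 13.9% of all genes. The median log2 ratio of replicate 1 over replicate 2 was -0.10 over the 44 genes and -0.06 over all genes. The next smallest adjusted p-values by the exact test were those of Lamp1 (log2 ratio -0.21, adjusted p = 0.0644), Lgmn (-0.48, 0.0749), Atp6ap1 (-0.66, 0.0832) and Atp6v1c1 (-0.46, 0.0973). The common biological coefficient of variation over all genes, from edgeR, was 0.136.

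The Cd63 reads of the libraries also differed in structure. Suffix models lack 5′ junctions of an annotated transcript but match its remaining ones. They took 395 of 1899 Cd63 reads (20.8%) in replicate 1 and 220 of 1546 (14.2%) in replicate 2. Cd63 was the single gene called of 31 tested for this share (Fisher's exact test, adjusted p = 5.89e-05), beside 2.79% of 2727 genes tested, of which 72 had the larger share in replicate 1 and 4 in replicate 2. Models starting at the third exon or later held 214 Cd63 reads in replicate 1 and 54 in replicate 2, that is 11.3% and 3.49% (Fisher's exact test, adjusted p = 4.43e-17 over 21 shares compared). Models that begin in the first exon and keep the first intron held 185 and 167 reads, 9.74% and 10.8%. Most of these reads count as suffix reads, through a 7-exon structure that lacks only the first junction (178 and 159 reads). On complete models alone, Cd63 had 1494 and 1322 reads, its log2 ratio was 0.15 and it was not called (exact binomial, adjusted p = 0.0968, against 1.42e-05 to 0.00504 under other scalings and filters).

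Complete models (annotated transcripts, NIC, which joins known splice sites anew, and NNC, which has an unknown splice site) held 85.6% of the set's reads in replicate 1 and 89.7% in replicate 2. Over the 39 genes of the set with at least 20 reads in each library, the median share on suffix models was 4.39% in replicate 1 and 4.0% in replicate 2, beside 4.55% and 3.33% over 4960 genes. Grn had the second largest share, 26.3% and 24.4%. Ctsa stood apart from all the others with 92.8% and 94.0%. A share over 50% in both libraries occurred in 0.907% of those 4960 genes.

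The annotated first exon of the Ctsa coding transcripts Ctsa-201 and Ctsa-202 (chromosome 2, 164832873 to 164833196) was used by 10 of 250 reads in replicate 1 and 10 of 265 in replicate 2, 4.0% and 3.77%. Models that begin inside the second exon of Ctsa-201 (164833724 to 164833850) and splice onward held 197 reads (78.8%) in replicate 1 and 226 (85.3%) in replicate 2. Those that begin there and keep the next intron held 19 reads in each library, 7.60% and 7.17%. Models that begin further downstream or elsewhere held 24 and 10 reads, 9.6% and 3.77% (Fisher's exact test, p = 0.0119, adjusted p = 0.0834). The spliced downstream start was the most used class in both libraries, and its share did not differ beyond counting error between them (Fisher's exact test, p = 0.0654, adjusted p = 0.274). The most used model alone, with 15 exons, had 192 and 222 reads.

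That downstream start lies at the second RefSeq promoter, whose sequence is printed above and whose start is at 164833773. This promoter holds CACGTG 2 times, 12 bases before and 5 bases after the start, while the upstream one holds it 0 times. Translation of Ctsa-202 begins in the next exon, at 164834030, so its whole annotated coding sequence lies downstream of these starts. That of Ctsa-201 begins at 164833797, within the exon where they fall. The most used model starts after that position, so as modelled it lacks the Ctsa-201 start codon. The exact start is not given by the model. The position of the most used model, 164833807, is also the annotated start of the retained-intron transcript Ctsa-212. Of the 850 unannotated or incomplete models of the set, 64.8% begin at an annotated transcript end. Whether these Ctsa reads reach the 5′ end of their molecules was not tested, and neither was use of either promoter. The opposite-strand genes Neurl2 and Pltp overlap the locus, with 7 and 8 reads and 61 and 79 reads.

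**Figure D3:**
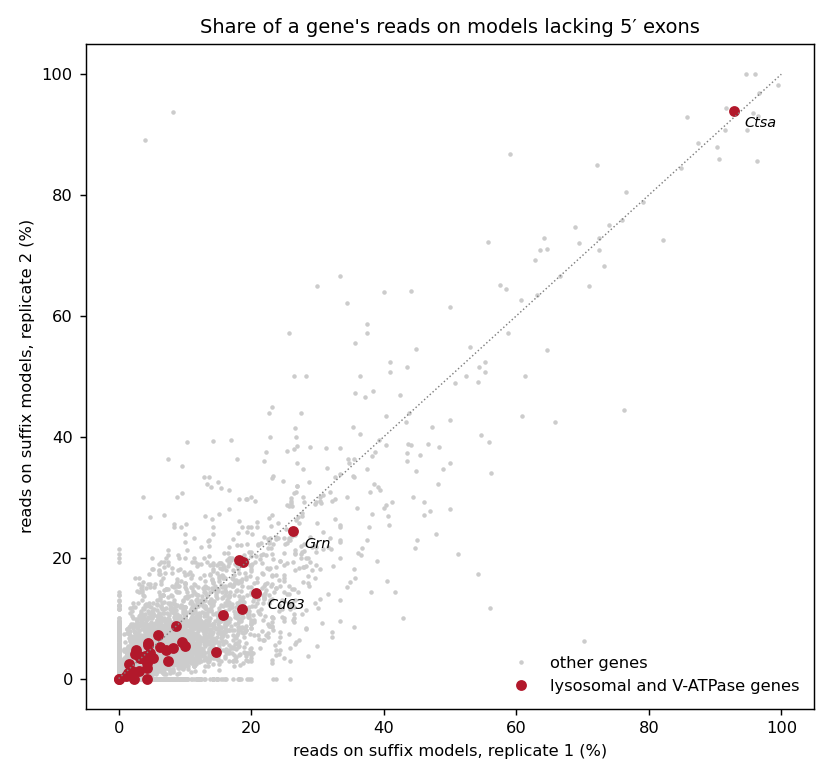
Share of each gene's reads on suffix models in replicate 1 (horizontal) and replicate 2 (vertical), for genes with at least 20 reads in each library. Suffix models lack 5′ junctions of an annotated transcript, and some keep an intron within their first exon. The dotted line marks equality. Ctsa lies above 90% in both libraries, Grn near 25% and Cd63 to the replicate 1 side of the line at 20.8% and 14.2%.

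CACGTG was searched in the RefSeq promoters of the whole set, and 39 of the 49 coding genes had an entry. Ctsb, Ctsh, Asah1, Npc1, Atp6v0a2, Atp6v0d2, Atp6v1b2, Atp6v1c1, Atp6v1g1 and Atp6v1h had none. The motif occurred in 13 of the 39 genes (33.3%), beside 8.09% of the 27025 genes, of any kind, in the same table. TCACGTG on either strand, which contains CACGTG, occurred in 12 of 39 (30.8%), beside 4.29%. A longer motif of 10 bases, with CACGTG at its centre, was also searched. It occurred in 0 of the 39 genes, beside 0.37% of the 27025 genes. At so low a share, 39 genes are too few to show a difference. Lamp1 held CACGTG 4 times, and Ctsd, Ctsa, Gla and Atp6v0b 2 times each. By role, it was found in 4 of 8 proteases, 4 of 8 glycosidases, 3 of 6 V0 genes, 1 of 6 V1 genes, 1 of 4 membrane glycoproteins, 0 of 5 genes of the lipid group and 0 of 2 accessory genes. Genes with the motif included Ctsd at 643 CPM and Gla at 10.6 CPM, and the highest gene, Cd63, did not hold it.

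Among the factors known to bind this motif, Tfe3 had 23 reads in replicate 1 and 35 in replicate 2, Tfeb 1 and 7, and Mitf 0 in both.

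Most genes of the set used a single transcript. The share of the most used annotated transcript among complete-model reads had a median of 93.1% over the 37 genes with at least 20 such reads in each library, beside 88.1% over 3992 genes, and it reached 80% in both libraries in 30 of the 37, beside 2497 of the 3992 (62.6%). None of the 37 was called different between the libraries by Fisher's exact test, beside 0.0752% of 3992 genes. Before adjustment 2 of the 37 had p under 0.05, and the share over all genes at that threshold was not counted. These were Gaa, with 27 of 31 reads on Gaa-203 in replicate 1 and 23 of 39 in replicate 2 (Fisher's exact test, adjusted p = 0.953), and Atp6v0b, with 182 of 209 and 161 of 172 reads on Atp6v0b-201. A second annotated transcript at 10% or more in both libraries was found in 3 of the 37, Lamp2, Gusb and Atp6v1a. How many of the 3992 genes have one was not counted.

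Lamp2 was the most evenly divided. Complete-model reads were classed by which alternative end was joined to the shared eighth exon. The LAMP-2A end took 107 of 196 in replicate 1 and 84 of 157 in replicate 2, 54.6% and 53.5%. The LAMP-2B end took 87 and 71, 44.4% and 45.2%, including 6 and 10 reads that splice on from it to the LAMP-2A last exon. The LAMP-2C end took 2 in each library, 1.13% of the pooled 353 reads (0.442% to 2.88%). LAMP-2A serves as the receptor of chaperone-mediated autophagy, and LAMP-2B is the form described as prominent in muscle. The libraries did not differ beyond counting error in any of these shares (Fisher's exact test, p = 0.914, 0.914 and 1.0), and pooled, LAMP-2A took 54.1% (48.9% to 59.2%) and LAMP-2B 44.8% (39.7% to 49.98%).

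The LAMP-2B exon lies nearest to the shared eighth exon, 2415 bases beyond it, with the LAMP-2A exon at 18695 bases and the LAMP-2C exon at 21985 bases. The annotated LAMP-2B exon is 2345 bases long, the LAMP-2A exon 510 bases and the LAMP-2C exon 925 bases. An unannotated form joined both ends: its copy of the LAMP-2B exon was cut to 211 bases (38421641 to 38421851) and spliced on to the LAMP-2A last exon. With close variants it had 6 reads in replicate 1 and 10 in replicate 2, 10.1% of the LAMP-2B ends (6.33% to 15.8%). The LAMP-2B stop codon lies 71 bases before that splice site, so the reading frame ends before the joined exon.

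Gusb-201, the full-length form with 12 exons, held 36 of 59 complete-model reads in replicate 1 and 38 of 56 in replicate 2. Gusb-203, which keeps the intron after the fourth exon and ends in the next intron, held 11 and 9. Atp6v1a-202 held 37 of 50 and 46 of 74, and Atp6v1a-201, which differs from it only in the outer ends and the splice site of the first exon, held 10 and 14. For both genes the order of the transcripts was the same in each library.

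**Figure D4:**
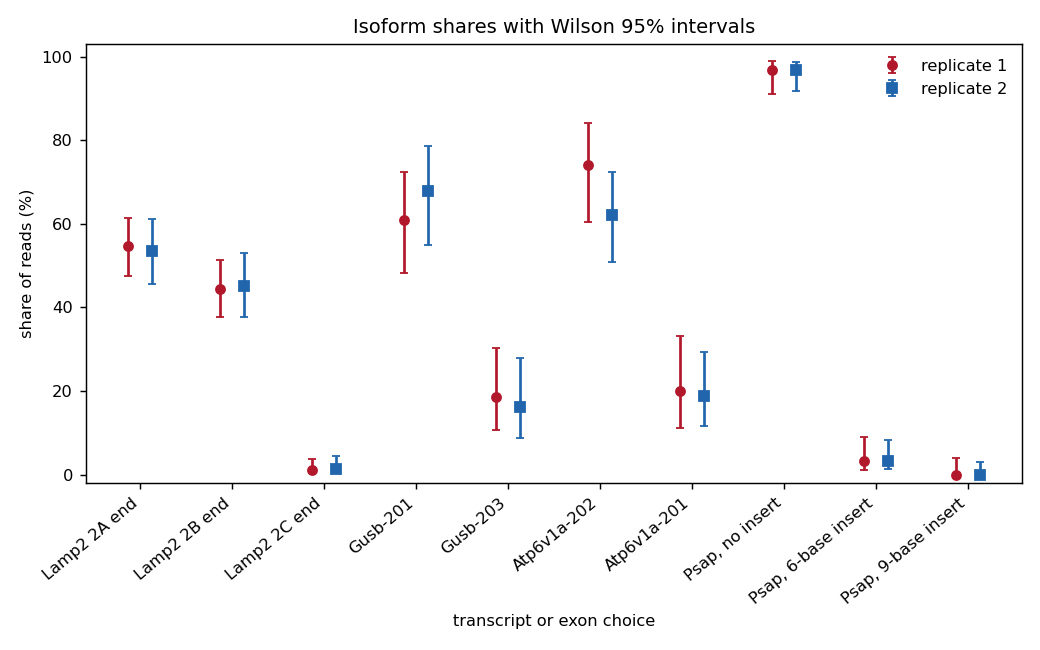
Share of reads on each Lamp2 end, on the main annotated transcripts of Gusb and Atp6v1a and on each form of the Psap junction. Lamp2 ends are classed by the exon joined to the eighth exon. Bars are Wilson 95% intervals, with replicate 1 as circles to the left and replicate 2 as squares to the right. The LAMP-2A and LAMP-2B ends lie near 54% and 45% in both libraries, and the 9-base exon of Psap is at 0.

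At the Psap junction printed above, 91 of 94 complete-model reads in replicate 1 and 117 of 121 in replicate 2 joined the exons directly. The 6-base extension occurred in 3 and 4 reads, 3.26% of the pooled 215 (1.59% to 6.57%). The 9-base exon (60297537 to 60297545) occurred in 0 reads, and a count of 0 among 215 would allow a share of up to 1.40%. That limit holds only if the files can show so short an exon, and they held almost none. Of 482 annotated transcripts with an internal exon of 9 bases or fewer, 0 had reads, also in the 49 genes among them with at least 50 reads (0 of 114 transcripts). The share was 3.52% for a shortest internal exon of 10 to 15 bases, 33.5% for 16 to 30 bases and 40.6% for 31 to 60 bases. Among all models with internal exons, annotated or not, 1 of 62267 in replicate 1 and 2 of 62761 in replicate 2 held one of 9 bases or fewer. Whether reads with the Psap exon were placed on the direct junction was not tested.

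**Figure D5:**
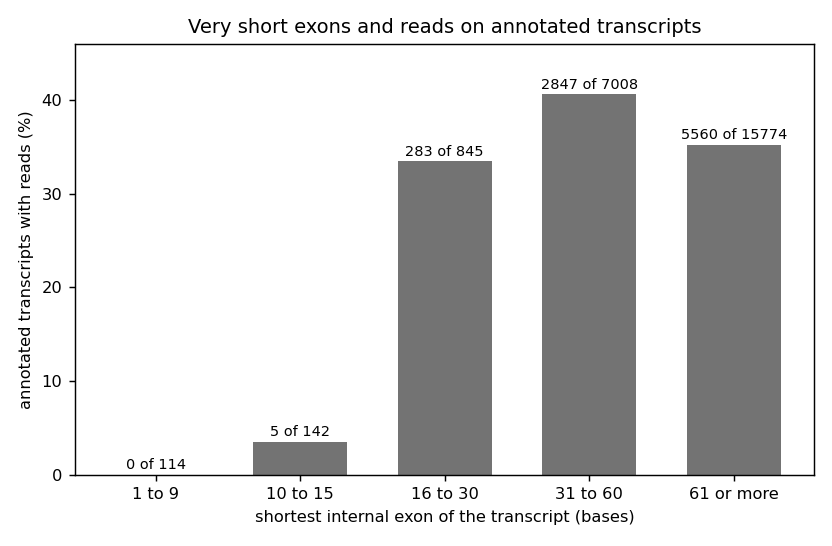
Share of annotated transcripts with at least 1 read, in genes with at least 50 reads, by the length of their shortest internal exon. Transcripts with an exon of 1 to 9 bases have none (0 of 114), those with 10 to 15 bases have 5 of 142, and the longer classes lie between 33.5% and 40.6%.

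Small shifts of a splice site recurred in the models of both libraries. Intron sequence at the shifted sites was not examined, and whether they come from misplaced reads was not tested. At the next junction of Psap, reads used an acceptor 3 bases downstream of the annotated one (60299467 in place of 60299464) in 7 of 100 reads in replicate 1 and 10 of 128 in replicate 2, 7.0% and 7.81%. Lamp1 used an acceptor of its second exon 3 bases upstream of the annotated one (13165846 on chromosome 8) in 30 of 712 and 52 of 803 reads, 4.21% and 6.48%, and one 3 bases downstream (13165852) in 11 and 12 reads. The Lamp1 shares did not pass the adjusted threshold between libraries (Fisher's exact test, unadjusted p = 0.0538, adjusted p = 0.274 upstream, and unadjusted p = 1.0 downstream). In all, the set had 407 unannotated complete structures, of which 63 occurred in both libraries and 16 had at least 3 reads in each, in 9 genes. A shift of 3 bases keeps a reading frame. Shifts of 2 or 4 bases, which do not where they fall in coding sequence, were also seen with at least 3 reads in each library, in Lamp1 (7 and 11 reads, and 4 and 8), Cd63 (6 and 5), Npc2 (4 and 4), Ctsl (5 and 3) and Ctsb (3 and 5, and 3 and 4).

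Other lysosomal genes gave a wider view. Of 28 further hydrolases and their activators, 25 were read in both libraries and 0 of 22 tested were called different, beside 3.98% of all genes tested (1591 ± 130 CPM in all). Scpep1, a serine carboxypeptidase, led with 366 ± 34.6 CPM, and Fuca1, a fucosidase (135 ± 15 CPM), and Aga, an aspartylglucosaminidase (121 ± 10.5 CPM), were also among the 5 highest. Of 17 further membrane proteins, 16 were read in both and 0 of 14 tested were called, beside the same 3.98%. The highest were Laptm4a at 465 ± 10.01 CPM, Tmem9 at 156 ± 27.4, Laptm4b at 142 ± 0.764, Rnasek at 120 ± 9.36 and the calcium channel Mcoln1 at 73.1 ± 12.0.

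In the sorting route, 12 of 13 genes were read in both libraries and 0 of 10 tested were called, beside 3.98% of all genes tested. The same share over all genes stands beside the counts of the lists that follow. The small mannose 6-phosphate receptor M6pr had 221 ± 34.2 CPM, and the large one, Igf2r, had 8 reads in replicate 1 and 2 in replicate 2. Whether transcript length bears on the difference between these receptors was not tested. The AP-1 adaptor genes Ap1s1 (260 ± 9.28 CPM) and Ap1m1 (180 ± 24.7), the phosphotransferase subunit Gnptg (69.3 ± 19.4) and the adaptor Gga2 (67.3 ± 20.2) completed the 5 highest. Of 16 genes of lysosomal regulation and mTORC1, 15 were read in both and 0 of 13 tested were called, led by Rheb (269 ± 23.0), the GTPase that activates mTORC1, and the Ragulator subunits Lamtor1 (204 ± 26.8), Lamtor5 (165 ± 19.5), Lamtor2 (156 ± 38.8) and Lamtor3 (156 ± 6.71). All 16 genes of tethering and transport were read in both and tested, and 0 were called, led by Rab7 (494 ± 54.9), the GTPase of late endosomes, Bloc1s1 (155 ± 2.01), Vamp8 (149 ± 17.4), Stx7 (131 ± 13.9) and Arl8b (91.4 ± 21.4).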

How the data were processed

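Total RNA of C2C12 cells was sequenced with long reads in 2 libraries. Per the file headers, the authors deposited raw read counts per transcript model, listing models with at least 1 read, and model coordinates on mm10 with GENCODE M21, where TALON is named as source. The aligner with its version was not given in the sources used here. Counts were summed per annotated gene. The gene set and all lists were chosen with earlier results of these data known. By rule, every gene of the set is accounted for, and the 5 highest of each role and list, genes called different, paralogs and genes with a second isoform are given with values, except for 2 genes of the hydrolase list, not reported here, and cell type markers read in neither library or at the floor. Tfe3, Tfeb, Mitf and Igf2r were named outside it, after their values were seen. Libraries were compared by two-sided exact binomial tests (at least 10 reads in both together) and Fisher's exact tests (scipy 1.17.1), adjusted by Benjamini-Hochberg at 0.05. Both were tried on simulated reads whose only noise was counting error, so that trial does not cover further spread between libraries. The test of the suffix share used genes with at least 50 reads in each library and was added after the structures were seen, as were the start classes, splice shifts and short exons. Scaling and dispersion used edgeR 4.0.16 and DESeq2 1.42.0, copies blastn 2.17.0. Log2 ratios used an offset of 0.5 reads. Wilson intervals and floors cover counting error only.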

Additional observations from a re-analysis of the deposited data

How the results depend on the processing

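The summed level, the call of Cd63, the isoform calls and the shares at the Lamp2 and Psap junctions were recomputed under other scalings, filters and model classes. With genes of at least 50 reads alone, 4 genes of the set were called in place of 1, namely Cd63, Lamp1, Lgmn and Atp6ap1, of 38 tested, beside 406 of 4739 genes tested (8.57%), where fewer genes enter the adjustment. On complete models alone 0 of 43 were called, beside 324 of 7436 genes (4.36%), and the cause was not tested. The genes called over all 8940 split into 232 higher in replicate 1 and 124 higher in replicate 2. With TMM library sizes they split into 303 and 82, and with DESeq2 size factors into 315 and 78. With annotated transcripts alone, the complete-model share of the set's reads was 83.6%, the LAMP-2A share 56.5% and the LAMP-2B share 42.2%, since unannotated models then no longer count. Leaving out 1 replicate gave 13226 to 13628 CPM for the summed level, and left LAMP-2A at 53.5% to 54.6% and LAMP-2B at 44.4% to 45.2%. No result changed direction under these alternatives. No paired analysis was possible because the series has 1 group. Depth limits genes near the floor, such as Npc1, Gla and Tfeb.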

Other observations

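Models of the antisense class, which lie opposite an annotated gene, overlapped 7 genes of the set with few reads. Atp6v1h had 1 in replicate 1 and 3 in replicate 2, against 76 and 86 reads in sense, and Psap had 2 and 0, against 135 and 139. An annotated gene on the opposite strand overlapped 18 of the 50 genes. At Ctsb, the opposite-strand gene Fdft1 shares 774 bases with the Ctsb transcript and had 157 reads in replicate 1 and 212 in replicate 2. Atp6v0a1, 1 of the subunit a genes, had 2 of 16 reads in replicate 1 and 2 of 14 in replicate 2 on complete models, against 13 of 19 and 25 of 29 for Atp6v0a2.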
